A study of Mus musculus with 2 samples.

Results

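Solute carriers were examined in purified germ cells of foetal mouse gonads. Of 391 protein-coding genes whose symbol begins with Slc, 172 were kept, chosen by their measured level, because their mean reached 10 CPM (counts scaled to a fixed library total) in at least 1 of the 10 groups of libraries, and they are called the members here. Levels are therefore given as a description. Slc28a1 (10.3 CPM in its highest group) and Slc35e3 (10.4 CPM) lay just inside that limit, and Slc25a53 (9.83 CPM), Slc4a4 (9.68 CPM) and Slc9a5 (9.57 CPM) lay just outside it. In all 10 groups, 69 members reached the limit, whereas 20 reached it in 1 group alone. All 172 passed the filter on low counts. The label solute carrier holds for 170 of them by name, since Slc4a1ap and Slc7a6os are named after a neighbouring gene and are not transporters.

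The germ cells came from wild-type (WT) embryos of ASMU Swiss crossed with Oct4(Pou5fl)-eGFP on a 129svJT2 background, at embryonic day (E) 12.5, and each of the 40 libraries held GFP+ cells sorted from several pooled gonads after removal of the mesonephros. XX and XY germ cells were taken before culture (0 h) or after culture of gonads with their mesonephros with DMSO, the vehicle, for 24 h or 72 h. XY gonads were also cultured for 24 h or 72 h with BGJ398, which inhibits FGF receptors (FGFRi), or with PD0325901, which inhibits MEK1/2 (MEKi), each at 500 nM. Every group had 4 biological replicates. Inhibitors were added to cultures of gonad and mesonephros, so germ cells and their somatic neighbours were exposed together. Comparisons asked how solute carrier transcripts differed between XY and XX germ cells, how they changed during culture, and how they changed with FGFRi or MEKi.

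Solute carriers are membrane proteins that move small molecules without hydrolysing ATP themselves, either down a gradient or coupled to the movement of an ion or a second solute. Those at the cell surface bring in sugars, amino acids, nucleosides, metals and vitamins or export lactate and protons, while the Slc25 family sits largely in the inner mitochondrial membrane and exchanges ADP for ATP and metabolites for one another. Other families load the Golgi with nucleotide sugars or fill vesicles with zinc or amines. In the foetal gonad, XX germ cells enter meiosis in the days after sex determination whereas XY germ cells enter mitotic arrest.

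Libraries held 1178953 to 5199153 deduplicated counts (median 2135128.5). All 6 germ cell markers were detected in every group, and their summed level was 2089 to 5640.3 CPM per library, against 6.69 to 74.7 CPM for 6 Sertoli and granulosa cell markers and 6.95 to 60.0 CPM for 6 interstitial and mesenchymal markers, of which the Leydig cell hormone Insl3 was at 0 in every group. Summed levels of 7 red blood cell markers were 22.4 to 41.1 CPM in XX and 37.6 to 259 CPM in XY germ cells at 0 h, and 182 to 466 CPM with MEKi against 23.7 to 114 CPM with DMSO at 24 h. Those of 3 macrophage markers were 0 to 4.65 CPM in XX and 13.0 to 19.6 CPM in XY germ cells at 72 h with DMSO, mostly from Cd68. The part of either cell type in the differences between these groups was not tested. The anion exchanger of red blood cells, Slc4a1, did not reach the level limit, with its highest mean, 0.68 CPM, in XY germ cells with FGFRi at 72 h. Y-linked genes summed to at most 19.3 CPM in XX and at least 128 CPM in XY libraries. The endothelial marker Pecam1, which germ cells also express, made up most of the summed level of 4 endothelial markers in XX germ cells at 0 h, which was 101 to 128 CPM, against 5.16 to 9.70 CPM at 72 h. That sum in XY germ cells at 72 h with DMSO was 15.5 to 21.9 CPM, with a second marker, Cdh5, at a mean of 9.72 CPM against 0.268 CPM in XX, and red blood cell markers summed to 30.4 to 55.1 CPM against 15.5 to 21.4 CPM in XX. By limma, 1 of 2 endothelial, 1 of 4 interstitial, 1 of 1 macrophage and 1 of 5 red blood cell markers tested were higher, and 1 of 4 Sertoli and granulosa cell markers lower, in XY germ cells than in XX at 72 h, and their part in the sex differences at 72 h was not tested. Libraries were amplified in 2 pools of 20, and comparisons of 72 h with 0 h, and of FGFRi with DMSO at 24 h, crossed the pools, so that time or treatment and pool cannot be told apart there. In these bulk libraries, fewer cells of a type and less RNA per cell cannot be told apart either.

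Of the 5 most abundant members, 4 were mitochondrial carriers. Counts were taken from the 3′ end of transcripts after removal of UMI duplicates, so levels are given as CPM without division by gene length. The ADP/ATP carrier Slc25a4 had the highest mean over the 40 libraries (629.5 CPM), followed by the phosphate carrier Slc25a3 (365 CPM), a second ADP/ATP carrier Slc25a5 (303 CPM), the mitochondrial glutathione carrier Slc25a39 (261 CPM) and Slc4a1ap (137 CPM). The next were Slc3a2, the heavy chain that brings several amino acid exchangers to the cell surface (137 CPM), the sodium-potassium-chloride cotransporter Slc12a2 (126 CPM), the zinc importer Slc39a6 (120.3 CPM), the mitochondrial pyrimidine nucleotide carrier Slc25a36 (113 CPM) and the zinc importer Slc39a10 (102 CPM). Summed over the 172 members, the level was 6405 ± 84.2 CPM (SD, n = 4) in XX and 6874 ± 147 CPM in XY germ cells at 0 h, and 5071 ± 220.3 CPM and 5523 ± 122 CPM at 72 h with DMSO. Without the 5 highest members the sums were 4190.1 ± 69.4 CPM and 4349 ± 115 CPM at 0 h against 4291 ± 234 CPM and 4299.7 ± 112 CPM at 72 h. Of those 5, Slc4a1ap rose over 72 h in both sexes (log2 fold changes 1.29 and 1.02). Between its lowest and highest group the median member differed 4.44-fold, 93 members differed more than 4-fold and 17 less than 2-fold. These ranges use the highest group, by which members were chosen, and were not computed for other genes, so they are a description.

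Tests were made with limma against a fold change of 1.5 at a false discovery rate of 0.05, over 172 members among 15252 genes. In XX germ cells 35 members rose and 44 fell between 0 h and 72 h, 20.3% and 25.6% of the members, beside 18.8% and 18.4% of all genes tested. Over the same time 37 rose and 31 fell in XY germ cells, 21.5% and 18.0%, beside 20.2% and 15.2% of all genes. At 72 h with DMSO, 53 members had higher levels in XY than XX germ cells and 28 had lower ones, 30.8% and 16.3%, beside 22.8% and 18.1% of all genes. With the replicate number added to the fit, 45 instead of 81 members differed between the sexes at 72 h. Over 72 h the counts were then 33 instead of 79 in XX and 66 instead of 68 in XY germ cells. The median log2 difference between XY and XX at 72 h was 0.39 over members and 0.10 over all genes, and among the 10846 protein-coding genes that met the same limit of 10 CPM, 24.1% were higher and 20.4% lower. Fewer members differed between the sexes at 24 h with DMSO, 13 higher and 14 lower in XY (background 4.00% and 5.99%), and at 0 h, 3 higher and 3 lower (background 1.34% and 1.65%). At 24 h the Sertoli cell marker Sox9 was also higher in XY by limma, with means of 24.0 CPM against 2.40 CPM in XX, the summed Sertoli and granulosa cell markers had means of 32.3 CPM and 10.2 CPM with overlapping libraries, and their part in the sex differences at 24 h was not tested. Between 0 h and 72 h the sex difference changed for 69 members, 43 towards XY and 26 towards XX, beside 16.0% and 12.9% of all genes. A member that reached the level limit only in a group being compared was favoured by that choice. Among members that reached it in some other group, 29 of 164 rose and 43 fell over 72 h in XX, 36 and 29 of 168 in XY, and 52 of 164 were higher and 24 lower in XY at 72 h. Markers of other cells also moved over 72 h by limma. In XX germ cells Foxl2, of granulosa cells, and the interstitial marker Nr2f2 were higher at 72 h and the endothelial marker Pecam1 was lower. For XY germ cells Pecam1 was lower too, while Fst, of granulosa cells, the interstitial marker Pdgfra, Cdh5, the macrophage marker Cd68 and 1 red blood cell marker were higher and 2 red blood cell markers lower, and their part in the changes of members was not tested.

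Within the first 24 h with DMSO, 7 members rose and 4 fell in XX germ cells (background 2.32% and 0.911%), and 5 rose and 4 fell in XY germ cells (background 1.61% and 1.33%). The zinc transporter Slc30a2 was the 1 member that fell in both. Without XX 24 h DMSO replicate 6 the first count was 7 in all instead of 11, with edgeR it was 24, and with the replicate number added to the fit it was 2. Without XY 0 h replicate 3 the second was 5 instead of 9. In XY germ cells at 72 h, MEKi was followed by 11 members higher and 8 lower than with DMSO (background 4.01% and 5.11%), and 15 were higher and 9 lower with MEKi than with FGFRi (background 5.71% and 6.98%). FGFRi at 72 h changed 0 members by limma (background 0.00656%), with 1 member at an unadjusted p under 0.05 and 0 by edgeR or DESeq2. MEKi at 24 h also changed 0 members (background 0.164%), with 7 at an unadjusted p under 0.05 and 0 by edgeR or DESeq2. With FGFRi at 24 h, 1 member, Slc7a3, was lower than with DMSO by limma and 0 by edgeR or DESeq2 (background 0.262%), and treatment and pool cannot be told apart there. The bar chart sets these shares beside those of all genes at a like level.

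**Figure D1:**
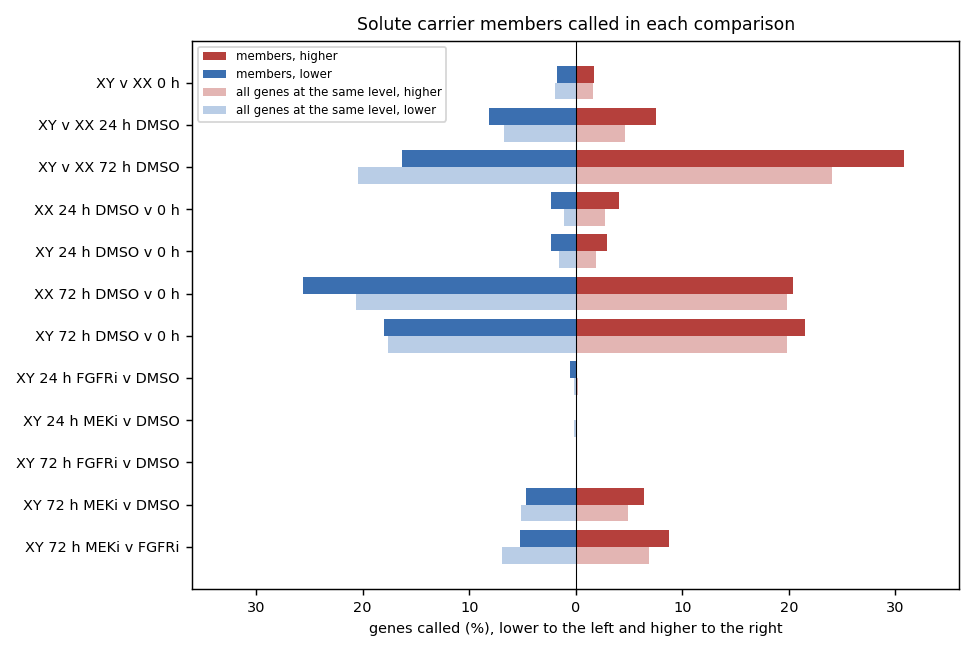
Percentage of the 172 members (dark bars) and of all protein-coding genes that met the same limit of 10 CPM (pale bars) called higher (right) or lower (left) by limma in each of 12 comparisons. The longest bar is the 30.8% of members higher in XY germ cells than in XX at 72 h, against 24.1% of the other set.

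The Slc25 family, classed here as mitochondrial carriers although Slc25a17 is peroxisomal, made up 32 members. Over 72 h, 7 rose and 8 fell in XX germ cells, and 5 rose and 9 fell in XY germ cells, beside 18.8% and 18.4% of all genes in XX and 20.2% and 15.2% in XY. As shares of the 32 these were 21.9% and 25% in XX and 15.6% and 28.1% in XY germ cells. Their summed level was 2958 ± 99.4 CPM in XX and 3217 ± 132 CPM in XY germ cells at 0 h (SD, n = 4) and 1719.6 ± 46.6 CPM and 1770.0 ± 72.4 CPM at 72 h. Slc25a4, Slc25a3, Slc25a5 and Slc25a39, the most abundant of them, fell in both sexes and made up much of the sum at 0 h. The sum therefore does not describe the remaining carriers. The 3 carriers that exchange cytosolic ADP for mitochondrial ATP moved in opposite directions: Slc25a4 and Slc25a5, the forms of most tissues, fell in both sexes, and Slc25a31, the form found mainly in germ cells, rose in both.

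Slc25a4 (chromosome 8, 46656538 to 46664325, GRCm39) measured 827, 853, 874 and 921 CPM in the 4 XX libraries at 0 h and 223, 224, 239.5 and 241 CPM at 72 h, values being given from lowest to highest throughout. In XY germ cells it measured 949, 1113, 1118 and 1213 CPM at 0 h and 362, 394, 443 and 476 CPM at 72 h. Every 72 h library was below every 0 h library of its sex, and the fall passed the test in XX (log2 fold change -1.89, SE 0.11, limma adjusted p = 9.6e-16) and in XY germ cells (log2 fold change -1.38, SE 0.10, limma adjusted p = 7.5e-10). Slc25a5, on the X chromosome (36059223 to 36062462), went from 422, 428, 433 and 471 CPM to 45.4, 51.5, 53.7 and 84.0 CPM in XX. It went from 411, 432, 454 and 475 CPM to 168, 192, 193 and 196 CPM in XY germ cells. The sexes did not overlap at 72 h, when Slc25a5 was higher in XY (log2 fold change 1.68, SE 0.16, limma adjusted p = 2.6e-08). The sex difference at 72 h differed from that at 0 h (log2 fold change 1.67, SE 0.19, limma adjusted p = 3.6e-06). Processed copies of Slc25a5 exist in the genome and may share reads with it. The copy annotated under its name held 102 counts against 28291 for the gene.

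Slc25a31 (chromosome 3, 40663285 to 40680527) rose from 30.1, 32.1, 32.6 and 38.0 CPM to 154, 168, 169.9 and 184 CPM in XX germ cells over 72 h (log2 fold change 2.31, SE 0.16, limma adjusted p = 8.5e-14). In XY germ cells it rose from 17.6, 19.6, 22.0 and 29.0 CPM to 85.9, 89.6, 95.3 and 104 CPM (log2 fold change 2.11, SE 0.19, limma adjusted p = 1.4e-09). At 24 h with DMSO it had already risen in XX germ cells (64.3, 72.6, 74.4 and 132 CPM, log2 fold change 1.19, SE 0.17, limma adjusted p = 0.019). The XY libraries at 24 h (27.2, 33.2, 39.2 and 64.1 CPM) did not pass the test (limma adjusted p = 1). XX and XY libraries at 72 h did not overlap, but the difference of -0.83 on the log2 scale did not pass the test against a fold of 1.5 (limma adjusted p = 0.097). Levels at 72 h were 112 ± 12.1 CPM with FGFRi and 119 ± 20.0 CPM with MEKi (SD, n = 4), beside 93.6 ± 7.82 CPM with DMSO. At 0 h the 2 widely expressed forms together stood far above Slc25a31, and at 72 h in XX germ cells Slc25a31 (169 CPM) lay between Slc25a4 (232 CPM) and Slc25a5 (58.7 CPM).

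The promoters of these 3 genes are shown because the carriers share a function and moved in opposite directions. They are 300 bases long, 250 before and 50 after the start of the gene, from RefSeq on GRCm38.p6, and capitals mark matches on either strand to GCGGGAA (bound by E2F factors), CACGTG (an E-box) or CNCCTCAG (the STRA8 motif).
Slc25a4 promoter, chr8:46211013-46211312, - strand: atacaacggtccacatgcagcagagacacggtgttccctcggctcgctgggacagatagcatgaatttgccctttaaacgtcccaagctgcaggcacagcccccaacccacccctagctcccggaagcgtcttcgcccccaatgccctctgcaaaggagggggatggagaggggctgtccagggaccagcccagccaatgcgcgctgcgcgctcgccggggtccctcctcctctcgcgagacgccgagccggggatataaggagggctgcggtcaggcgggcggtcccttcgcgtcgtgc
Slc25a5 promoter, chrX:36795347-36795646, + strand: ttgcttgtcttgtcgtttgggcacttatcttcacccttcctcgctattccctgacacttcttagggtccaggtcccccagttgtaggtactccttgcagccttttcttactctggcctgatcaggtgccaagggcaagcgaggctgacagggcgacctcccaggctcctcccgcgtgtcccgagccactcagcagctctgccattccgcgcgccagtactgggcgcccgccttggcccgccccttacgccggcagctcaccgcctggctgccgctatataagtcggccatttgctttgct
Slc25a31 promoter, chr3:40708621-40708920, + strand: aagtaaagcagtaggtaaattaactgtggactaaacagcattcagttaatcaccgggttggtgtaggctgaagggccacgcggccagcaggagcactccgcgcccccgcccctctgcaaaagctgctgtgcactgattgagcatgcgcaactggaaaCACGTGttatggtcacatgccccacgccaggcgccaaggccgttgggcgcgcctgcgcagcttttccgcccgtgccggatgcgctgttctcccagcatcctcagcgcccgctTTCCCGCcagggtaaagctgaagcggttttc
The Slc25a31 promoter held 1 E-box and 1 match to the E2F letters on the reverse strand, while the other two held no match in this window. Of 32851 promoters of the same length, 4.60% held the E2F letters, 7.15% the E-box and 7.94% the STRA8 letters. Promoters were matched for 132 members (178 promoters), of which 16, 26 and 18 promoters held the respective letters, 8.99%, 14.6% and 10.1%. Some members had several promoters, and the difference from all promoters was not tested. Matches describe the sequence and are not binding sites.

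Some other abundant Slc25 members fell as well. Slc25a3 fell over 72 h in XX and XY germ cells (log2 fold changes -1.08 and -0.98). So did Slc25a39 (-2.39 and -1.27) and the aspartate-glutamate carrier Slc25a13 (-3.49 and -1.72). A further group rose mainly in XX germ cells. The coenzyme A carrier Slc25a42 measured 1.93, 4.65, 4.74 and 4.90 CPM at 0 h and 42.8, 49.6, 51.8 and 60.0 CPM at 72 h in XX germ cells (log2 fold change 3.69, SE 0.31, limma adjusted p = 8.9e-13). XY libraries at 72 h held 4.64, 5.43, 6.27 and 7.99 CPM. The sexes did not overlap at 72 h (log2 fold change -3.06, SE 0.30, limma adjusted p = 2.7e-10). The peroxisomal carrier Slc25a17 rose by 1.47 and the ATP-magnesium/phosphate carrier Slc25a25 by 2.24 in XX, and both were lower in XY than in XX at 72 h (-1.73 and -2.05). In contrast, the carnitine-acylcarnitine carrier Slc25a20 rose in XY germ cells, from 11.8, 12.5, 12.9 and 13.2 CPM to 39.7, 41.3, 44.8 and 46.4 CPM (log2 fold change 1.73, SE 0.20, limma adjusted p = 2.4e-06). Its XX libraries at 72 h held 12.4, 17.4, 20.9 and 22.6 CPM. Slc25a14, a relative of the uncoupling proteins, rose in both sexes, by 2.35 in XX and by 1.78 in XY germ cells on the log2 scale. Slc25a36 passed the test in none of the 12 comparisons, with group means that differed at most 1.37-fold.

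**Figure D2:**
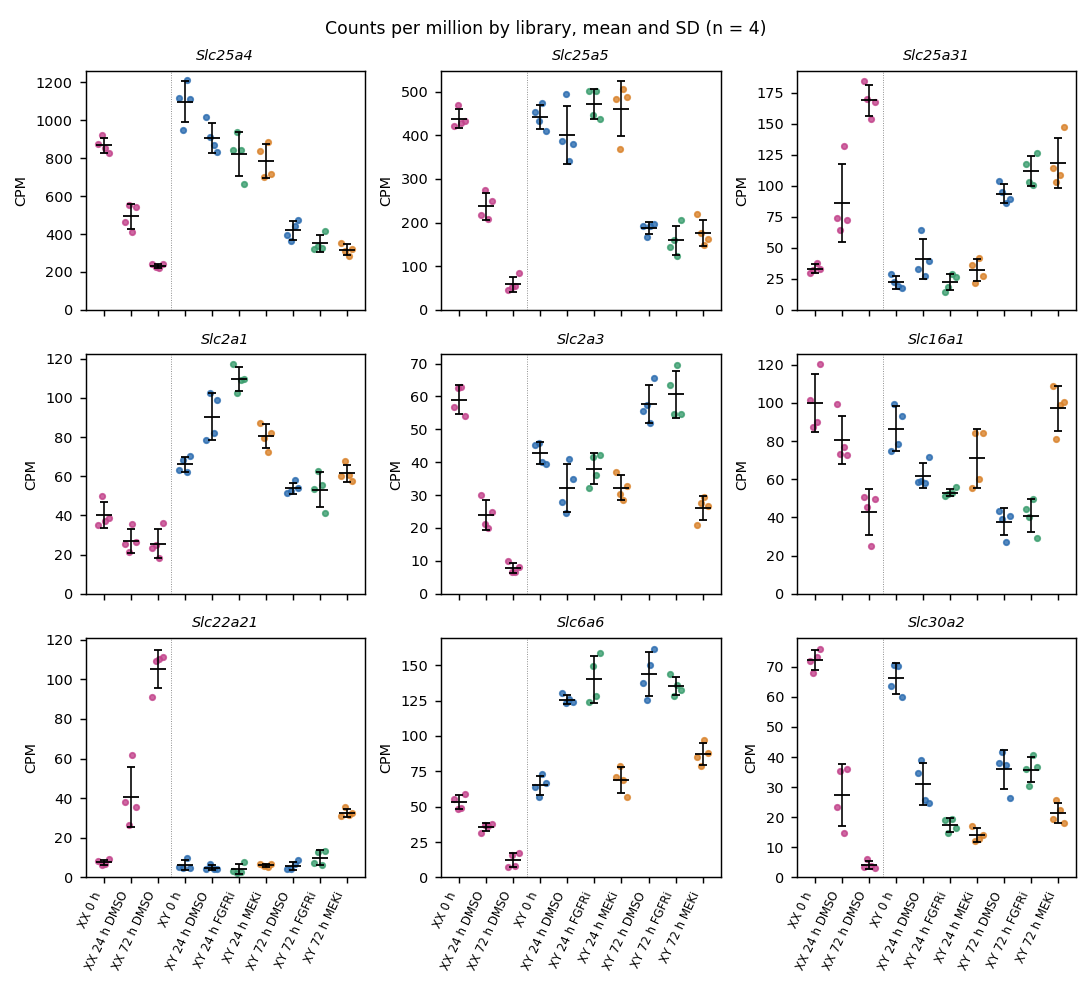
CPM of 9 members in each library (points, coloured by sex and treatment), with the group mean and SD (black, n = 4), over the 10 groups. Slc25a4 and Slc25a5 are lowest in XX germ cells at 72 h where Slc25a31 and Slc22a21 are highest, and Slc2a3, Slc6a6 and Slc30a2 at 72 h are lower in XX than in XY with DMSO.

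Of 6 hexose transporters, 4 were higher and 0 lower in XY germ cells than in XX at 72 h with DMSO, beside 22.8% and 18.1% of all genes. Slc2a3 (GLUT3), a high-affinity glucose transporter, measured 54.1, 56.7, 62.6 and 62.8 CPM in XX germ cells at 0 h, 19.8, 21.3, 24.7 and 29.9 CPM at 24 h and 6.47, 6.69, 8.03 and 9.81 CPM at 72 h. The fall did not leave any overlap between the 3 times and passed the test at 24 h (log2 fold change -1.27, SE 0.15, limma adjusted p = 0.0016) and at 72 h (log2 fold change -2.87, SE 0.25, limma adjusted p = 2.2e-11). Slc2a3 measured 39.6, 40.1, 45.2 and 45.9 CPM at 0 h and 51.9, 55.5, 57.3 and 65.7 CPM at 72 h in XY germ cells, a difference that did not pass the test (limma adjusted p = 1). With MEKi for 72 h its level was 20.8, 26.6, 27.6 and 29.3 CPM, below every DMSO library (log2 fold change -1.06, SE 0.13, limma adjusted p = 0.0045). It was also below every FGFRi library (54.7, 54.8, 63.5 and 69.6 CPM, log2 fold change -1.14, SE 0.12, limma adjusted p = 2.5e-04). Slc2a1 (GLUT1), the basal glucose transporter of most cells, was higher in XY at 24 h, with 78.3, 81.8, 98.7 and 103 CPM against 21.3, 25.2, 26.3 and 35.7 CPM in XX (log2 fold change 1.81, SE 0.16, limma adjusted p = 1.7e-08). It was higher at 72 h as well (log2 fold change 1.10, SE 0.18, limma adjusted p = 0.008). The fructose transporter Slc2a5 held at most 2.08 CPM in any library at 0 h or 24 h. At 72 h it measured 6.64, 9.32, 13.4 and 16.6 CPM in XY with DMSO, 1.61, 1.99, 2.74 and 5.75 CPM with MEKi (log2 fold change -1.85, SE 0.36, limma adjusted p = 0.0084). The XX libraries at 72 h held 0, 0.647, 2.68 and 4.68 CPM (log2 fold change 3.31, SE 0.61, limma adjusted p = 9.2e-05).

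Among 6 members of the monocarboxylate family, Slc16a1 (MCT1), which carries lactate and pyruvate with a proton, fell over 72 h in XX (-1.30 on the log2 scale) and in XY germ cells (-1.23). At 72 h in XY germ cells it measured 27.3, 39.3, 40.5 and 43.4 CPM with DMSO, 29.3, 40.4, 44.3 and 49.5 CPM with FGFRi and 80.9, 98.9, 100.3 and 109 CPM with MEKi. The MEKi libraries lay above all the others (log2 fold change 1.34, SE 0.17, limma adjusted p = 5.5e-04 against DMSO) and overlapped the XY libraries at 0 h (75.0, 78.4, 93.3 and 99.6 CPM). Slc16a4, a family member of less certain substrate, was a transcript of XY germ cells at 24 h, with 19.7, 23.0, 24.9 and 38.0 CPM against 0, 0.991, 2.00 and 2.36 CPM in XX (log2 fold change 4.55, SE 0.60, limma adjusted p = 9.5e-07). At 72 h it measured 6.27, 6.64, 9.32 and 10.3 CPM with DMSO and 0.993, 1.19, 1.57 and 3.76 CPM with MEKi (log2 fold change -2.19, SE 0.48, limma adjusted p = 0.011). Slc16a7 (MCT2) rose from a mean of 0.527 to 6.53 CPM in XY germ cells (3.44 on the log2 scale), and had means of 0.841 and 12.6 CPM in XX germ cells, where the level at 72 h alone made it a member. The lactate exporter Slc16a3 did not reach the level limit.

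Slc22a21, a carnitine transporter of the organic cation family (chromosome 11, 53839733 to 53871254, GRCm39), distinguished XX from XY germ cells at 24 h and 72 h. It measured 6.18, 6.98, 8.39 and 9.20 CPM in XX germ cells at 0 h, 26.5, 35.5, 38.3 and 61.9 CPM at 24 h and 90.9, 109, 110.0 and 111 CPM at 72 h. The 3 times did not overlap, and both rises passed the test (log2 fold change 2.21, SE 0.24, limma adjusted p = 2.4e-06 at 24 h, and log2 fold change 3.74, SE 0.23, limma adjusted p = 6.8e-18 at 72 h). XY germ cells held 4.67, 4.70, 5.26 and 9.80 CPM at 0 h and 4.18, 4.48, 6.66 and 8.63 CPM at 72 h with DMSO. With MEKi for 72 h the 4 XY libraries measured 31.3, 31.3, 32.5 and 35.5 CPM, above all DMSO libraries (log2 fold change 2.52, SE 0.29, limma adjusted p = 9.6e-07). They were above all FGFRi libraries (6.19, 7.11, 12.9 and 13.4 CPM, log2 fold change 1.84, SE 0.19, limma adjusted p = 8.1e-07) and below all XX libraries of that time. Its paralogue and neighbour Slc22a5, the main carnitine importer of most tissues, also rose in XX germ cells (log2 fold change 1.76, SE 0.29, limma adjusted p = 3.5e-04) and measured 10.3 ± 4.29 CPM with MEKi against 6.98 ± 2.93 CPM with DMSO (SD, n = 4), which did not pass the test. Reads shared between these paralogues cannot be assigned with certainty. Over the 10 group means, the members whose log2 levels were most like those of Slc22a21 were Slc30a4 (Pearson r = 0.98), Slc25a42 (0.95), Slc25a25 (0.94), Slc25a17 (0.93) and Slc10a3 (0.92), a description over 10 groups that share libraries with the tests above.

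Of 23 amino acid transporters, 9 were higher and 2 lower in XY germ cells than in XX at 72 h, beside 22.8% and 18.1% of all genes. Over 72 h 4 rose and 7 fell in XX (all genes 18.8% and 18.4%) and 5 rose and 6 fell in XY (all genes 20.2% and 15.2%). Slc7a3 and Slc7a7 are among the last of these and were members through XY germ cells at 0 h alone, and 4 fell without them. A wide separation was that of Slc6a6, the taurine transporter, which was classed apart, among 4 Slc6 carriers of amino acids and amines. It fell in XX germ cells from 48.7, 49.3, 55.3 and 59.1 CPM to 7.23, 8.41, 16.1 and 17.1 CPM (log2 fold change -2.25, SE 0.23, limma adjusted p = 1.5e-08). It rose in XY germ cells from 57.1, 63.6, 67.0 and 73.1 CPM to 125, 137, 149.8 and 161 CPM (log2 fold change 1.17, SE 0.11, limma adjusted p = 1.5e-05). No library overlapped between the sexes at 72 h (log2 fold change 3.66, SE 0.23, limma adjusted p = 2.9e-17). With MEKi for 72 h Slc6a6 measured 78.6, 85.4, 87.8 and 97.3 CPM, below every DMSO library, but the difference did not pass the test against a fold of 1.5 (log2 fold change -0.68, limma adjusted p = 0.74). Slc38a4, an imprinted system A transporter expressed from the paternal allele in several tissues, measured 2.01, 4.28, 4.53 and 4.65 CPM in XX against 37.9, 41.4, 48.4 and 58.2 CPM in XY germ cells at 72 h (log2 fold change 3.45, SE 0.45, limma adjusted p = 2.1e-07). The large neutral amino acid exchanger Slc7a5 was also higher in XY (2.25), and its partner Slc3a2 passed the test in none of the 12 comparisons.

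Both sexes shared some changes. Slc38a1, a sodium-coupled glutamine transporter, fell from 78.0, 89.2, 93.8 and 111 to 11.2, 12.3, 16.5 and 23.4 CPM in XX (log2 fold change -2.62, SE 0.28, limma adjusted p = 7.9e-09). The XY libraries of Slc38a1 went from 91.7, 97.1, 99.2 and 106 to 23.3, 27.9, 30.5 and 31.3 CPM in XY germ cells (log2 fold change -1.79, SE 0.20, limma adjusted p = 8.5e-07). Slc38a9, the lysosomal arginine sensor of the mTORC1 pathway, rose from 21.7, 22.4, 24.8 and 25.6 to 100.1, 104, 112 and 142 CPM in XX (log2 fold change 2.17, SE 0.14, limma adjusted p = 9.8e-15). The XY libraries of Slc38a9 went from 16.9, 19.5, 20.4 and 22.4 to 84.3, 85.9, 87.9 and 104 CPM in XY germ cells (log2 fold change 2.17, SE 0.15, limma adjusted p = 4.6e-13). Their 0 h and 72 h libraries did not overlap in either sex. Slc7a6, a cationic and neutral amino acid exchanger that pairs with Slc3a2, moved in opposite directions, from 33.4, 34.3, 35.9 and 51.4 to 70.7, 80.9, 95.3 and 95.7 CPM in XX (log2 fold change 1.14, SE 0.14, limma adjusted p = 4.6e-04). The XY libraries of Slc7a6 went from 41.0, 41.7, 53.2 and 58.4 to 15.9, 16.1, 20.5 and 24.6 CPM in XY germ cells (log2 fold change -1.40, SE 0.19, limma adjusted p = 1.5e-04). With MEKi it measured 39.4, 41.5, 42.7 and 47.1 CPM, above all DMSO libraries (log2 fold change 1.15, SE 0.18, limma adjusted p = 0.019). The neutral amino acid transporter Slc1a4 was higher in XY germ cells than in XX at 24 h, with 35.7, 38.9, 47.9 and 50.2 CPM against 12.4, 12.4, 13.1 and 15.1 CPM in XX (log2 fold change 1.59, SE 0.23, limma adjusted p = 8.3e-04). At 72 h it was higher with MEKi (32.6 ± 3.85 CPM) than with DMSO (10.7 ± 3.96 CPM, log2 fold change 1.62, SE 0.25, limma adjusted p = 0.0014). The arginine transporter Slc7a1 was likewise higher with MEKi (1.21 on the log2 scale).

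A list of 15 genes of the amino acid response, the programme induced when amino acids run short, was set beside these transporters. Of 13 tested, 6 were higher and 0 lower in XY germ cells than in XX at 72 h (all genes 22.8% and 18.1%), and 0 rose and 6 fell in XX over 72 h (all genes 18.8% and 18.4%). In XY germ cells 2 rose and 3 fell (all genes 20.2% and 15.2%). The median log2 difference between XY and XX at 72 h was 1.48 over the list and 0.10 over all genes. Of 17 tested partners of transport, such as subunits of the sodium pump and chaperones of transporters, 1 rose and 4 fell over 72 h in XX, and 1 rose and 6 fell in XY germ cells. At 72 h 1 was higher and 5 were lower in XY germ cells than in XX, with a median log2 difference of -0.19, beside the shares of all genes just given.

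Zinc transporters numbered 17, of which the Slc30 members move zinc out of the cytosol and the Slc39 members move it in. Over 72 h 3 rose and 5 fell in XX, and 3 rose and 2 fell in XY germ cells, beside 18.8% and 18.4% of all genes in XX and 20.2% and 15.2% in XY. Slc30a2, which fills vesicles with zinc, fell in XX germ cells from 68.0, 72.0, 73.3 and 75.8 CPM at 0 h to 3.21, 3.61, 3.88 and 6.02 CPM at 72 h (log2 fold change -4.14, SE 0.36, limma adjusted p = 1.6e-12). XY libraries at 72 h held 26.5, 37.3, 38.0 and 41.8 CPM, above every XX library (log2 fold change 3.14, SE 0.37, limma adjusted p = 3.5e-08). Slc30a4, a second vesicular zinc transporter, took the other direction in XX germ cells, from 1.55, 2.80, 3.07 and 3.09 to 16.8, 17.1, 19.6 and 31.4 CPM (log2 fold change 2.87, SE 0.39, limma adjusted p = 9.4e-07). The XY libraries at 72 h held 0, 0, 2.69 and 3.34 CPM with DMSO and 3.47, 4.48, 5.15 and 6.27 CPM with MEKi (log2 fold change 2.10, SE 0.56, limma adjusted p = 0.048). The zinc importer Slc39a4 fell in XX (-2.23) and rose in XY germ cells (1.22). At 72 h it measured 0, 1.94, 2.14 and 2.58 CPM in XX, 20.6, 24.2, 24.6 and 24.7 CPM in XY with DMSO (log2 fold change 3.69, SE 0.47, limma adjusted p = 8.0e-08). With MEKi it measured 7.84, 7.94, 8.13 and 9.67 CPM (log2 fold change -1.47, SE 0.21, limma adjusted p = 0.0013), and these 3 groups did not overlap. A pair of Slc39 importers of higher level behaved differently, Slc39a10 falling in both sexes (-1.35 and -1.02) and Slc39a6 passing the test in none of the 12 comparisons.

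Slc31a1 (CTR1), the main copper importer, was lower in XY germ cells than in XX at 72 h, with 25.1, 32.7, 43.9 and 48.4 CPM against 105, 140.4, 152 and 171 CPM (log2 fold change -2.04, SE 0.22, limma adjusted p = 8.4e-08). XY germ cells cultured with MEKi for 72 h held 73.2, 78.4, 85.2 and 90.3 CPM, above all DMSO libraries (log2 fold change 1.21, SE 0.21, limma adjusted p = 0.032). The iron transporter Slc11a2 passed the test in none of the 12 comparisons, and the iron exporter Slc40a1 and the mitochondrial iron importer Slc25a37 did not reach the level limit. Slc41a1, a magnesium transporter, rose within 24 h in XY germ cells, from 23.2 to 73.5 CPM (log2 fold change 1.56, SE 0.16, limma adjusted p = 1.2e-05), and had a mean of 23.6 CPM at 72 h.

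Ion carriers included 8 members for bicarbonate and chloride and 6 cation-chloride cotransporters, of which 4 and 5 were higher in XY germ cells than in XX at 72 h and 1 and 0 lower, beside 22.8% and 18.1% of all genes. Without the members that reached the level limit only in a group compared, Slc4a8 and Slc26a8 among them, the bicarbonate and chloride counts were 3 higher and 0 lower of 5. Slc4a5, a sodium-bicarbonate cotransporter, fell in XX germ cells from 13.2, 15.1, 17.5 and 20.1 to 0, 1.07, 2.06 and 4.53 CPM (log2 fold change -3.15, SE 0.57, limma adjusted p = 9.8e-05). It rose in XY germ cells from 15.7, 20.0, 23.2 and 24.6 to 54.4, 55.2, 59.9 and 62.2 CPM (log2 fold change 1.54, SE 0.20, limma adjusted p = 5.8e-05). Its 72 h libraries did not overlap between the sexes (log2 fold change 4.97, SE 0.56, limma adjusted p = 1.3e-09). Slc26a8, an anion transporter known from sperm, had the other order. It measured 1.39, 1.40, 3.48 and 4.27 CPM in XX germ cells at 0 h and 23.6, 24.8, 26.5 and 29.4 CPM at 72 h, the group through which alone it was a member, so that no test is given. Its level in XY at 72 h was 0, 0.448, 1.33 and 2.00 CPM. The sperm-associated exchanger Slc9b1 rose in XY germ cells from 3.14, 3.63, 5.26 and 8.02 to 34.5, 39.7, 43.1 and 53.9 CPM (log2 fold change 3.25, SE 0.33, limma adjusted p = 1.1e-09). It measured 5.82, 10.0, 12.4 and 16.6 CPM in XX germ cells at 72 h. Slc12a2, the most abundant cation-chloride cotransporter, was higher in XY at 72 h by 1.25 on the log2 scale, 1 of the 5 called in its class.

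The Slc35 family held 20 members, most of which carry nucleotide sugars or related donors into the Golgi and endoplasmic reticulum, and 5 rose and 3 fell over 72 h in XX against 2 and 3 in XY germ cells (all genes 18.8% and 18.4% and 20.2% and 15.2%). The rises in XX are 4 without Slc35a5, a member through XX germ cells at 72 h alone. Slc35b2, which carries the sulphate donor PAPS, fell in XY germ cells from 30.3, 35.5, 45.1 and 46.2 to 2.66, 5.85, 6.71 and 11.3 CPM (log2 fold change -2.74, SE 0.33, limma adjusted p = 1.8e-07). With MEKi it measured 16.8, 19.9, 20.6 and 22.7 CPM at 72 h, above every DMSO library (log2 fold change 1.73, SE 0.34, limma adjusted p = 0.01). Slc35f3 was a transcript of XY germ cells at 72 h, with 26.4, 27.6, 28.0 and 32.5 CPM with DMSO, 24.5, 25.4, 32.5 and 33.2 CPM with FGFRi and 3.47, 10.2, 10.7 and 13.9 CPM with MEKi, against 0.669, 1.29, 1.55 and 2.68 CPM in XX germ cells. The sex difference (log2 fold change 3.94, SE 0.53, limma adjusted p = 1.9e-07) and the difference of MEKi from DMSO (log2 fold change -1.39, SE 0.22, limma adjusted p = 0.0064) both passed the test. Slc35f2 was lower in XX germ cells at 72 h (-3.13 against 0 h), whereas its group means in XY germ cells ranged from 35.7 to 48.3 CPM.

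Of 4 nucleoside, 2 organic anion and 2 peptide carriers, 3, 2 and 1 fell over 72 h in XX and 0 rose, while 1, 2 and 1 fell in XY germ cells and 1 nucleoside carrier rose. The nucleoside count in XX includes Slc28a1, a member through XX germ cells at 0 h alone, and is 2 without it. Of all genes, 18.8% rose and 18.4% fell in XX, and 20.2% rose and 15.2% fell in XY germ cells. The equilibrative nucleoside transporter Slc29a1 fell in XX (log2 fold change -1.91, SE 0.32, limma adjusted p = 3.5e-04) and in XY germ cells (log2 fold change -2.89, SE 0.25, limma adjusted p = 1.7e-11). Slco4c1, an organic anion transporter, measured 17.0, 17.5, 22.4 and 23.1 CPM in XX at 0 h and 0, 0, 0 and 1.29 CPM at 72 h, where only 2 counts were left over the 4 libraries. In XY germ cells it went from 15.3, 15.8, 18.9 and 25.0 to 0, 0, 1.25 and 1.79 CPM (log2 fold change -4.38, SE 0.59, limma adjusted p = 2.5e-07). The peptide transporter Slc15a1 had a mean of 9.36 CPM in XX germ cells at 0 h and 0 counts at 72 h, which allows up to 0.438 CPM over the group by counting error alone. Slc18a1, the vesicular amine transporter of endocrine cells, measured 0.388, 0.557, 1.54 and 2.80 CPM in XX germ cells at 0 h and 15.5, 15.5, 17.1 and 24.8 CPM at 72 h, again the 1 group through which it was a member, and XY libraries at 72 h held 2.00, 3.98, 4.60 and 4.92 CPM. All 3 members of the choline transporter family were higher in XY germ cells than in XX at 72 h, beside 22.8% of all genes. Slc44a1, the most abundant of them, fell in XX (-2.14) and differed between XY and XX at 72 h by 2.54 on the log2 scale. The folate carrier Slc46a1 rose in both sexes (1.75 and 1.79) whereas Slc19a1, a second folate carrier, passed the test in none of the 12 comparisons.

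The 2 sexes were set side by side over 72 h, in comparisons that share no library but share the change of pool. Of 35 members that rose in XX and 37 that rose in XY germ cells, 12 rose in both, 34.3% and 32.4% of the lists, where over all genes the shares were 37.9% and 35.1%. Of 44 that fell in XX and 31 that fell in XY, 16 fell in both, 36.4% and 51.6%, where over all genes the shares were 39% and 47.1%. Opposite calls were made for 6 members: Slc22a18, Slc39a4, Slc4a5 and Slc6a6 fell in XX and rose in XY, and Slc5a10 and Slc7a6 rose in XX and fell in XY germ cells. The first 4 were 9.09% of the members that fell in XX, and the other two 5.71% of those that rose, where over all genes the shares were 5.48% and 2.37%. Slc5a10 reached the level limit in XX germ cells at 72 h alone, so its rise there is a description. Across the 172 members the log2 fold changes of the 2 sexes had a Pearson r of 0.40, beside 0.50 across all 15252 genes, as a description in which genes are not independent replicates. The scatter plot of change over time shows these members.

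**Figure D3:**
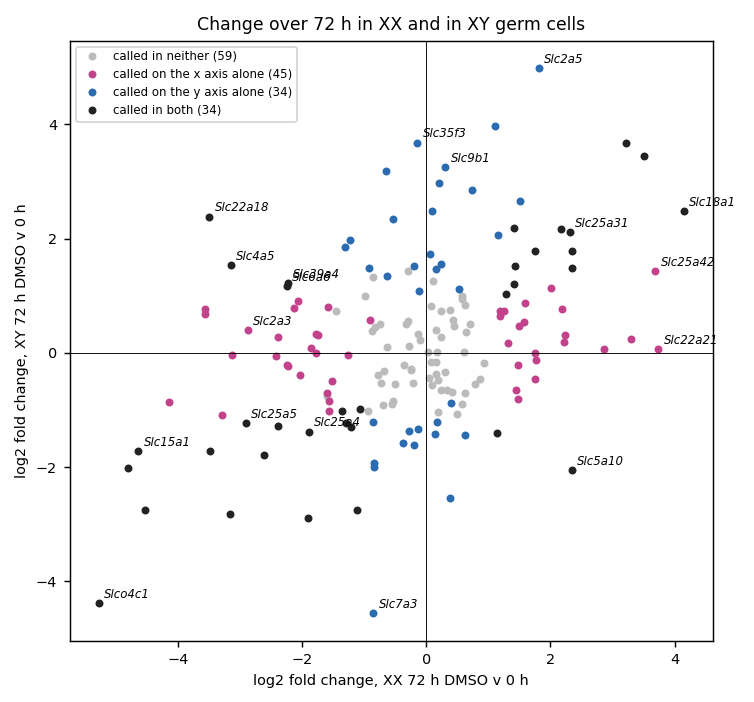
Fitted log2 fold change from 0 h to 72 h with DMSO in XX (x axis) and XY germ cells (y axis) for the 172 members, coloured by whether limma called the change. Slc22a21 and Slc25a42 lie at the right, near 4 on the x axis, Slc6a6 and Slc4a5 lie at the upper left, and Slc25a4 and Slc25a5 at the lower left, and 34 members were called in both sexes.

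At 0 h, before culture, 6 members were called between the sexes. For Slc7a3, Slc7a7 and Slc28a1 the call used the 1 group through which they were members, so their values are a description and the count is 3 without them. Slc22a18, an imprinted gene expressed from the maternal allele in several tissues, measured 25.2, 26.5, 29.5 and 31.3 CPM in XX and 1.30, 1.75, 1.96 and 3.56 CPM in XY germ cells (log2 fold change -3.85, SE 0.36, limma adjusted p = 5.6e-10). The order was turned by 72 h, when XX libraries held 1.55, 2.14, 2.59 and 3.35 CPM and XY libraries 7.11, 7.32, 13.3 and 14.3 CPM (log2 fold change 2.04, SE 0.43, limma adjusted p = 0.0021). The difference of the sex differences was 5.89 on the log2 scale (limma adjusted p = 2.5e-11). The neutral amino acid transporter Slc6a17 was also lower in XY at 0 h (-1.92 on the log2 scale). The concentrative nucleoside transporter Slc28a1 measured 7.76, 8.36, 10.8 and 15.4 CPM in XX and 0, 0.519, 1.32 and 2.67 CPM in XY germ cells. Slc29a1 was higher in XY, with 75.0, 79.4, 85.8 and 90.9 CPM against 28.3, 30.9, 32.4 and 36.4 CPM (log2 fold change 1.40, SE 0.16, limma adjusted p = 1.8e-04). The exchanger light chain Slc7a7 measured 20.5, 23.1, 30.3 and 37.7 CPM in XY against 7.37, 9.79, 10.9 and 11.6 CPM in XX, and the arginine transporter Slc7a3 measured 11.6, 12.9, 13.6 and 15.8 CPM against 1.16, 1.40, 1.93 and 2.79 CPM. Slc7a3 measured 3.13, 5.18, 6.76 and 9.63 CPM in XY germ cells at 24 h with DMSO and 0, 0, 0.868 and 2.64 CPM with FGFRi (log2 fold change -3.05, SE 0.63, limma adjusted p = 0.0497), a call that edgeR and DESeq2 did not make and that was lost in 30 of the 40 fits that left out 1 library. At 24 h with MEKi, which was sequenced in the pool of the DMSO libraries, Slc7a3 measured 0.548, 1.06, 3.71 and 3.72 CPM and did not pass the test (limma adjusted p = 1). Slc7a7 had a mean of 2.56 ± 2.14 CPM at 24 h and 3.98 ± 2.08 CPM at 72 h in XY germ cells with DMSO (SD, n = 4). The 3 macrophage markers summed to 2.51 to 4.20 CPM in XX and 1.18 to 3.37 CPM in XY germ cells at 0 h. The summed red blood cell markers overlapped between the sexes at 0 h, as given above, with 0 of 5 called by limma, and their part in these sex differences was not tested.

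Of the members, 8 lie on the X chromosome, among them Slc6a8, Slc7a3, Slc10a3, Slc25a5, Slc25a14 and Slc35a2. Their median log2 difference between XY and XX was -0.01 at 0 h and -1.0 at 72 h, when 4 were lower and 1 higher in XY by limma, beside 26.5% lower and 18.1% higher of the X-linked genes tested. The 164 autosomal members had a median of 0.43 at 72 h, and the 635 X-linked genes tested had -0.24 at 0 h and -0.11 at 72 h. The creatine transporter Slc6a8 had a mean of 9.90 CPM in XX and 2 counts in all 4 XY libraries at 72 h. Slc10a3 and Slc35a2 were lower in XY, with log2 differences of -1.65 and -2.11, as was Slc25a14 (-1.11), while Slc25a5, described above, was higher.

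MEKi and FGFRi were both given to XY gonads at 500 nM for 72 h, so they were compared at the same concentration and time. Equal concentration need not be equal inhibition. In the paper, phosphorylated ERK1/2 was absent after 24 h with MEKi but still seen with FGFRi. By limma, 19 members differed between MEKi and DMSO, 0 between FGFRi and DMSO and 24 between MEKi and FGFRi. The members higher with MEKi than with DMSO were Slc1a4, Slc7a1, Slc7a6, Slc16a1, Slc22a21, Slc30a4, Slc31a1, Slc35b2, Slc35g1, Slc38a10 and Slc39a9, and those lower were Slc2a3, Slc2a5, Slc4a11, Slc16a4, Slc25a20, Slc35f3, Slc39a4 and Slc43a2. Without XY 72 h DMSO replicate 2 the count was 12, and without the filter on low counts it was 8, against 13 for MEKi and FGFRi. Among markers of other cells tested, Cdh5 and the red blood cell enzyme Alas2 were lower with MEKi than with DMSO and than with FGFRi by limma, and the interstitial marker Nr2f2 was higher with MEKi than with FGFRi. Alas2 had means of 7.42 CPM with DMSO, 8.57 CPM with FGFRi and 1.44 CPM with MEKi, and the red blood cell markers summed to 12.3 to 26.3 CPM with MEKi and 23.2 to 70.0 CPM with FGFRi. Cdh5 had 9.72, 6.07 and 1.81 CPM and Pecam1 7.0, 6.35 and 14.7 CPM in the same order, and the endothelial sums overlapped, at 15.5 to 21.9 CPM with DMSO, 15.9 to 19.1 CPM with FGFRi and 9.93 to 28.3 CPM with MEKi. Nr2f2 had 15.7, 5.89 and 25.6 CPM, and the interstitial sums were 35.3 to 48.3 CPM with DMSO, 23.6 to 30.8 CPM with FGFRi and 33.5 to 60.0 CPM with MEKi. Of 6 germ cell markers, 2 were lower with MEKi than with DMSO. The part of other cells in the differences with MEKi was not tested. In the libraries with FGFRi, Slc2a3 measured 60.6 ± 7.24 CPM, Slc25a20 45.1 ± 8.41 CPM and Slc39a4 24.5 ± 2.89 CPM (SD, n = 4), beside 57.6 ± 5.84, 43.0 ± 3.10 and 23.5 ± 1.97 CPM with DMSO. The 95% intervals of the log2 difference between FGFRi and DMSO, from the SE and 30 residual degrees of freedom, were -0.16 to 0.31 for Slc2a3, -0.29 to 0.29 for Slc25a20, -0.32 to 0.39 for Slc39a4 and 0.03 to 1.34 for Slc22a21. Those between MEKi and DMSO were -1.33 to -0.80, -1.43 to -0.78, -1.90 to -1.04 and 1.93 to 3.12 in the same order. A p above the threshold does not show that FGFRi left these members as with DMSO.

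The difference between MEKi and FGFRi in XY germ cells was set beside the difference between XY and XX germ cells with DMSO at 72 h, since these comparisons share no library. Of 9 members lower with MEKi than with FGFRi, 8 (88.9%) were among the 53 higher in XY than in XX (15.1% of that list), namely Slc2a3, Slc2a5, Slc4a11, Slc22a18, Slc25a20, Slc35f3, Slc39a4 and Slc43a2. Of 15 members higher with MEKi, 6 (40.0%) were among the 28 lower in XY than in XX (21.4%), namely Slc7a6, Slc22a21, Slc31a1, Slc35a2, Slc35b2 and Slc35f5. Over all genes, 80.6% of those lower and 56.9% of those higher with MEKi were on the matching list (24.6% and 17.9% of the sex lists). Slc1a4 was the 1 member higher with MEKi and higher in XY, 6.67% of those higher with MEKi, and 0 were lower in both, where over all genes the shares were 2.18% and 0.563%. Across the 172 members the 2 log2 differences had a Pearson r of -0.57, beside -0.60 across all 15252 genes, again as a description. Slc22a21 had means of 5.98 CPM in XY with DMSO, 32.6 CPM with MEKi and 105 CPM in XX, and Slc2a3 had 57.6, 26.1 and 7.75 CPM in the same order. The lactate carrier Slc16a1 differed from this, at 37.6, 97.2 and 42.8 CPM.

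**Figure D4:**
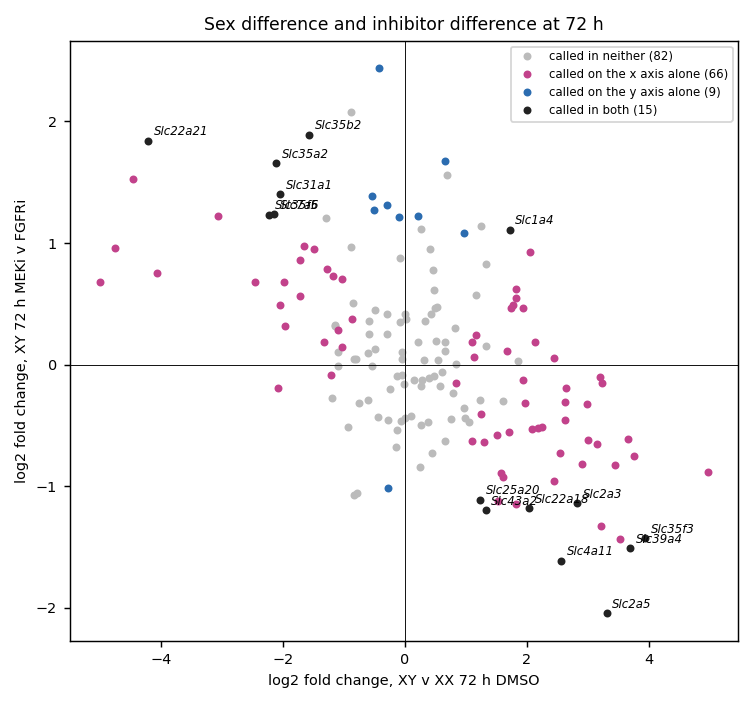
Fitted log2 difference between XY and XX germ cells at 72 h with DMSO (x axis) and between MEKi and FGFRi in XY germ cells at 72 h (y axis) for the 172 members, coloured by the limma calls. The 15 members called in both lie at the upper left (Slc22a21, Slc35b2) or the lower right (Slc2a5, Slc4a11), apart from Slc1a4.

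The 32 members described by library are drawn together in the heat map, ordered by the difference between XY and XX germ cells at 72 h. Of the 172 members, 39 (22.7%, beside 32.2% of all genes tested) passed the test in none of the 12 comparisons, among them Slc3a2, Slc39a6, Slc25a36, the lysosomal peptide transporter Slc15a4 and the bicarbonate transporter Slc4a7. Those members can still differ by less than the test resolves. The remaining 133 passed in at least 1.

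**Figure D5:**
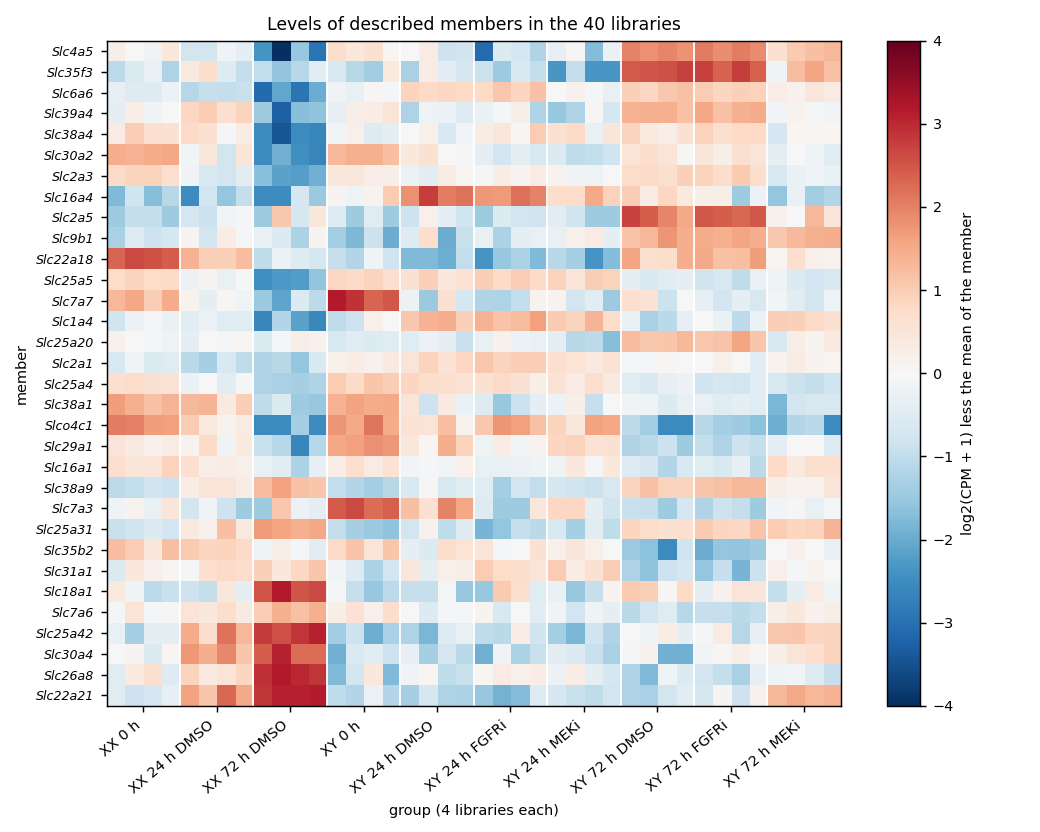
Levels of 32 members in the 40 libraries, as log2(CPM + 1) less the mean of the member over the libraries (colour), with the 10 groups separated by white lines. Rows at the top (Slc4a5, Slc35f3, Slc6a6) are low in XX and high in XY germ cells at 72 h, and rows at the bottom (Slc22a21, Slc26a8, Slc30a4, Slc25a42) show the reverse, with intermediate colours for Slc22a21 and Slc25a42 with MEKi.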

How the data were processed

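RNA of sorted germ cells was made into 3′ UMI libraries by the authors, who trimmed barcodes with scPipe, aligned reads to GRCm39 with Rsubread, and deposited 1 table of raw counts per gene after removal of UMI duplicates. Versions and the annotation release are not given in the sources used here, and the study's methods and its code give different UMI lengths, the effect of which on the counts was not checked. Groups came from the library names, with 4 libraries a group, and counts were 1178953 to 5199153 per library, so that levels of a few CPM rest on few molecules. Of 42422 gene identifiers, 40391 were matched to GENCODE annotation on GRCm39, and the rest held 1.05% of counts.

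Counts were scaled by TMM and filtered with filterByExpr (minimum count 10, total 15), and 1 mean per group was fitted over all 40 libraries with voomWithQualityWeights in limma 3.58.1 (edgeR 4.0.16, R 4.3.3), as in the study's methods. Differences were tested two-sided with treat against a fold change of 1.5, with Benjamini-Hochberg adjustment over 15252 genes. CPM are counts scaled to a fixed total and by TMM, averaged per group and given as mean ± SD, except that the level limit used CPM by library total. Members and gene lists were chosen with earlier results of these data known. Members were named if they were among the 10 strongest calls in either direction of a comparison without overlap, if a comparison had 10 or fewer calls, if they were among the 15 most abundant, the most abundant of a class, next to the level limit, on the X chromosome, in a textbook list or among the 5 most like a member, and Slc7a6os was named for its symbol. Index sequences were shared by 16 pairs of libraries across the pools, and carry-over of 3.25% was estimated from Y-linked genes in XX germ cells at 24 h. Alternatives were edgeR, DESeq2 1.42.0, other scaling, no filter, a test without the fold threshold, separate fits, a replicate block, removal of carry-over, other level limits, members at the limit outside the groups compared and leaving out each library. The limma test of XY against XX germ cells at 72 h was also run on simulated counts, of which no result is given here. All columns of the table were used. Some members are not reported here.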

Additional observations from a re-analysis of the deposited data

Results flagged for a closer look

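Single libraries stood apart from the other 3 of their group, by Dixon's test at 95%, in 25 of 320 combinations of 32 members and 10 groups, and chance alone gives about 1 in 20 groups. Slc25a5 measured 368 CPM in XY 24 h MEKi replicate 2 against 484 to 506 CPM in the other libraries of its group. Slc25a5 measured 168 CPM in XY 72 h DMSO replicate 4 against 192 to 196 CPM in the other libraries of its group. Slc25a31 measured 132 CPM in XX 24 h DMSO replicate 6 against 64.3 to 74.4 CPM in the other libraries of its group. Slc25a42 measured 1.93 CPM in XX 0 h replicate 3 against 4.65 to 4.90 CPM in the other libraries of its group. Slc25a42 measured 8.03 CPM in XY 24 h FGFRi replicate 4 against 2.44 to 3.16 CPM in the other libraries of its group. Slc16a1 measured 99.6 CPM in XX 24 h DMSO replicate 4 against 72.6 to 76.8 CPM in the other libraries of its group. Slc16a1 measured 71.7 CPM in XY 24 h DMSO replicate 5 against 58.1 to 58.9 CPM in the other libraries of its group. Slc22a21 measured 90.9 CPM in XX 72 h DMSO replicate 4 against 109 to 111 CPM in the other libraries of its group. Slc22a21 measured 9.80 CPM in XY 0 h replicate 5 against 4.67 to 5.26 CPM in the other libraries of its group. Slc22a21 measured 6.77 CPM in XY 24 h DMSO replicate 3 against 4.15 to 4.47 CPM in the other libraries of its group. Slc22a18 measured 1.62 CPM in XY 24 h DMSO replicate 5 against 0.344 to 0.521 CPM in the other libraries of its group. Slc38a1 measured 8.93 CPM in XY 72 h MEKi replicate 2 against 19.7 to 21.5 CPM in the other libraries of its group. Slc7a7 measured 3.69 CPM in XY 24 h FGFRi replicate 5 against 0.815 to 1.15 CPM in the other libraries of its group.

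Slc39a4 measured 20.6 CPM in XY 72 h DMSO replicate 6 against 24.2 to 24.7 CPM in the other libraries of its group. Slc39a4 measured 9.67 CPM in XY 72 h MEKi replicate 3 against 7.84 to 8.13 CPM in the other libraries of its group. Slc35f3 measured 1.59 CPM in XY 24 h MEKi replicate 2 against 0 CPM in the other libraries of its group. Slco4c1 measured 1.29 CPM in XX 72 h DMSO replicate 8 against 0 CPM in the other libraries of its group. Slc38a4 measured 2.01 CPM in XX 72 h DMSO replicate 7 against 4.28 to 4.65 CPM in the other libraries of its group. Slc38a4 measured 19.4 CPM in XY 72 h MEKi replicate 2 against 32.7 to 33.3 CPM in the other libraries of its group. Slc38a9 measured 47.4 CPM in XY 24 h DMSO replicate 3 against 28.9 to 31.9 CPM in the other libraries of its group. Slc9b1 measured 5.70 CPM in XY 24 h FGFRi replicate 3 against 11.5 to 12.2 CPM in the other libraries of its group. Slc25a20 measured 21.2 CPM in XY 24 h FGFRi replicate 3 against 14.8 to 15.5 CPM in the other libraries of its group. Slc25a20 measured 57.6 CPM in XY 72 h FGFRi replicate 5 against 39.8 to 41.9 CPM in the other libraries of its group. Slc7a6 measured 51.4 CPM in XX 0 h replicate 3 against 33.4 to 35.9 CPM in the other libraries of its group. Slc7a6 measured 24.0 CPM in XY 24 h DMSO replicate 3 against 33.5 to 35.3 CPM in the other libraries of its group.

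The sex difference at 72 h differed from that at 0 h for 69 members, tested as an interaction in limma. Among the members described by library, the interaction on the log2 scale was Slc25a5 (1.67), Slc25a42 (-2.25), Slc2a3 (3.27), Slc2a5 (3.18), Slc22a21 (-3.68), Slc22a18 (5.89), Slc6a6 (3.41), Slc1a4 (2.01), Slc7a3 (-3.70), Slc30a2 (3.28), Slc30a4 (-2.80), Slc39a4 (3.45), Slc31a1 (-1.32), Slc4a5 (4.69), Slc26a8 (-3.07), Slc35b2 (-1.63), Slc35f3 (3.83), Slc38a4 (4.25), Slc9b1 (2.95), Slc25a20 (1.67) and Slc7a6 (-2.54), where a positive value is a change towards XY germ cells. Slc7a3 and Slc26a8 reached the level limit only in a group that enters this difference, so their values are a description.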

How the results depend on the processing

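Of 394 calls over members and comparisons, 197 were made under every alternative and 0 changed direction. A test without the fold threshold, on an observed fold over 1.5, counted 39 members between XY and XX at 0 h, 65 at 24 h, 50 for XX and 41 for XY over 24 h, 106 for XY over 72 h, 9 for FGFRi and 10 for MEKi at 24 h, and 1 for FGFRi, 67 for MEKi and 68 for MEKi against FGFRi at 72 h. These larger counts follow from the weaker null hypothesis. With edgeR the count for XX over 24 h was 24. For FGFRi at 24 h the count was 0 with edgeR, DESeq2, median-of-ratios scaling, only the groups compared, or a limit of 20 CPM. Without the filter the counts were 8 for MEKi against DMSO and 13 for MEKi against FGFRi at 72 h, and the cause was not tested. At a limit of 20 CPM, with fewer members, the counts were 3 and 14 between the sexes at 0 h and 24 h and 41 for XY over 72 h. Counting only members that reached the limit in a group outside those compared, an alternative added after the data were seen, gave 3 between the sexes at 0 h and stayed within 1.5 times elsewhere.

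Leaving out 1 library gave 4 to 7, 22 to 27 and 71 to 82 members between the sexes at 0 h, 24 h and 72 h, 7 to 12 for XX and 5 to 10 for XY over 24 h, 74 to 81 and 60 to 70 over 72 h, 0 to 1 for FGFRi at 24 h, 0 for MEKi at 24 h and FGFRi at 72 h, 12 to 20 for MEKi at 72 h, 17 to 25 for MEKi against FGFRi and 58 to 71 for the interaction. The lowest counts for XX over 24 h, XY over 24 h and MEKi at 72 h were without XX 24 h DMSO replicate 6, XY 0 h replicate 3 and XY 72 h DMSO replicate 2.

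With a replicate block, the counts were 45 between the sexes at 72 h, 2 for XX over 24 h, 33 for XX over 72 h and 35 for the interaction, against 81, 11, 79 and 69 without it, and stayed within 1.5 times elsewhere. Libraries of the same sex with the same number did not deviate together (median r -0.0086 over 62 pairs, 1 above 0.1, against 0.002 in other pairs of the same sex). The numbers were therefore not taken to pair samples. Few of these pairs were XX, and pairs across the sexes were not checked. For the lower counts above, which are of XX over time or between the sexes, the check cannot decide on the block.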

Other observations

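Members outside the groups above also differed. Of 2 ascorbate carriers, 2 fell over 72 h in XX germ cells (all genes 18.4%) and 1 was higher in XY than in XX at 72 h (all genes 22.8%). Slc23a1, one of them, rose within 24 h in XY germ cells from 2.19, 2.59, 2.74 and 4.46 to 9.38, 11.6, 12.4 and 14.0 CPM (log2 fold change 2.03, SE 0.34, limma adjusted p = 0.003). Slc5a10, a sodium-coupled hexose carrier, measured 1.94, 2.10, 3.86 and 4.18 CPM at 0 h and 10.2, 17.0, 20.1 and 22.0 CPM at 72 h in XX, and 1.78, 1.96, 2.59 and 2.63 CPM and 0, 0, 0.666 and 1.34 CPM in XY germ cells. Over the 10 groups, 43 members had their highest mean in XX germ cells at 72 h, 27 in XY germ cells with FGFRi at 72 h and 5 in XY germ cells with MEKi at 24 h, as a description.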
